A study of Homo sapiens with 6 samples.

Results

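Nuclear pore proteins and the receptors that carry cargo through the pore were examined in 786-O, a human kidney carcinoma line. The members are the probe sets whose only gene symbol is NUP with a number, a further named pore protein, an importin, a transportin, an exportin, RAN or RCC1. The rule gave 161 of 44988 single-symbol probe sets, which stand for 53 of 18132 genes, 28 of them pore proteins and 25 receptors or Ran cycle genes. KPNA2 meets the rule by name, but its probe set also lists another symbol and was left out. Probe sets that list POM121 together with its near copies, or IPO11 together with LRRC70, were left out for the same reason.

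The shERCC6L cells (3 arrays) had a lentiviral short hairpin RNA against ERCC6L, a DNA translocase of anaphase DNA threads, and the shNC cells (3 arrays) a negative control hairpin. Total RNA of each sample was hybridised to an Affymetrix array, and the unit is the processed probe set signal on a linear scale. The labels give neither the number of hairpins nor whether replicates are separate cultures or infections, so the p-values measure only the spread between these arrays, which may be technical. The targeted gene read 97.59, 97.49 and 97.83 on the shERCC6L arrays, against 239.9, 244.3 and 261.4 on the shNC arrays.

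The nuclear pore is a ring built of multiple copies of many proteins. Its outer ring (the Y complex) and inner ring form the scaffold, proteins rich in phenylalanine-glycine repeats fill the channel, and filaments and a basket reach into cytoplasm and nucleus. Importins bind cargo in the cytoplasm and release it in the nucleus when they meet Ran with GTP, whereas exportins bind cargo together with it. RCC1 keeps nuclear Ran loaded with GTP. In mitosis the pore is taken apart, and the outer ring complex goes in part to kinetochores.

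All values below come from the brightest probe set of each gene, unless every probe set is named. A log2 fold change is the difference of log2(signal + 16), shERCC6L minus shNC, and a call is an adjusted p under 0.05 in limma over all 18132 genes. Array medians ran from 60.04 to 61.21 in shERCC6L and from 60.37 to 61.56 in shNC, and arrays correlated at 0.9987 or more within groups and at 0.9942 or less across groups. Of the renal carcinoma markers, all 7 that were measured lay at or above the median gene level, among them PAX8, and 0 of 10 markers of blood cells, endothelium, hepatocytes and fibroblasts did.

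Pore and transport genes were more often higher than lower in shERCC6L, each by little. Of the 53 genes, 27 were higher and 7 lower, which is 50.9% and 13.2%. Over all genes 18.2% were higher and 13.4% lower, 31.6% in either direction. Nearly all members (49 of 53) lay at or above the median gene level, where calls were more common, with 32.8% higher and 19.6% lower of 9066 genes. Counts by role below rest on few genes each and are to be read beside these shares. The median log2 fold change was 0.12 over the members, -0.01 over all genes and 0.04 over genes at or above the median level.

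Changes were of like size in the pore and among the receptors, with median absolute log2 fold changes of 0.16 and 0.15. This median was 0.14 over genes at or above the median level and 0.075 over all genes. Of 28 pore proteins, 14 rose and 4 fell, and of 25 receptors and Ran cycle genes, 13 rose and 3 fell. Among the members, 6 were called higher by at least 1.2-fold (IPO11, POM121, NUP58, NUP35, NUP37 and IPO7), beside 7.69% of all genes. NUP43 and XPOT were called lower by at least 1.2-fold, beside 5.49% of all genes. At 1.5-fold, 0 members were higher and NUP43 was lower, beside 0.711% and 1.37% of all genes. The shares at 1.2-fold and 1.5-fold were counted over all genes, dim ones included, and not over a set as bright as the members. The groups did not overlap for 33 members as higher and 8 as lower, against 23.1% and 20.3% of all genes. Of the 49 members whose level reached that of the median gene, 32 were apart as higher and 7 as lower. Of all 9066 genes at such levels, 3623 were apart as higher and 2226 as lower, which is the closer comparison. Each shERCC6L array lay above the shNC mean for most members (40, 38 and 42 of 53), with median deviations of 0.11, 0.13 and 0.16 on the log2 scale. Over all genes the median deviations of these arrays were 0.001, -0.010 and -0.013. The shNC arrays themselves lay above the shNC mean for 21, 27 and 33 of the 53 members. In RNA from whole cultures, fewer cells in a given state and less RNA per cell cannot be told apart.

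**Figure D1:**
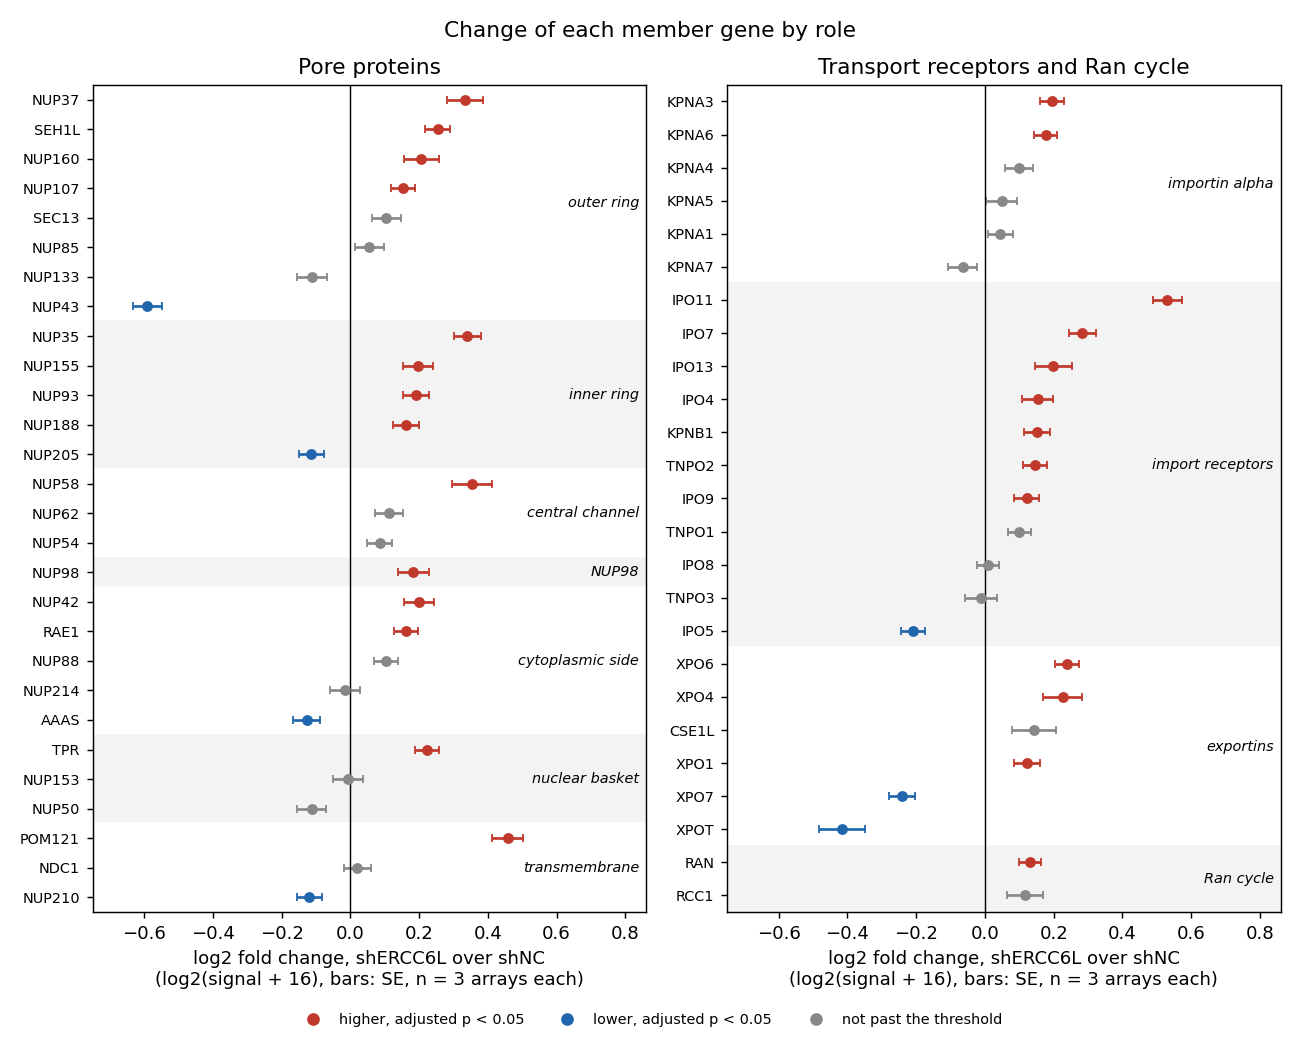
Log2 fold change (shERCC6L over shNC, horizontal axis, log2(signal + 16), bars are limma's moderated SE, n = 3 arrays per group) of each of the 53 member genes, grouped by role, on its brightest probe set. Most points lie to the right of 0, with NUP43 at -0.59 and XPOT at -0.42 farthest to the left.

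The promoters of 4 members that carry the larger changes are printed here, since they show sequence that members moving up and down can share. They are the pore genes with the largest rises and the member with the largest fall among members with a single promoter window in RefSeq (GRCh38.p14), from 250 bases before to 50 after a start site of the gene. For NUP35 that site lies 6929 bases inside the gene's outermost start in the same assembly, and for NUP58, NUP37 and XPOT it is the outermost start. Over the members, 41 windows lay at the outermost start and 6 at an inner one. Capitals mark the letters CCGGAAG, a form of the site that ETS factors bind, or their reverse complement CTTCCGG. Windows lie at chr13:25301375-25301674 (plus strand) for NUP58, chr2:183124193-183124492 (plus) for NUP35, chr12:102120065-102120364 (minus) for NUP37 and chr12:64404142-64404441 (plus) for XPOT, each written 5′ to 3′ in the gene's direction.
NUP58: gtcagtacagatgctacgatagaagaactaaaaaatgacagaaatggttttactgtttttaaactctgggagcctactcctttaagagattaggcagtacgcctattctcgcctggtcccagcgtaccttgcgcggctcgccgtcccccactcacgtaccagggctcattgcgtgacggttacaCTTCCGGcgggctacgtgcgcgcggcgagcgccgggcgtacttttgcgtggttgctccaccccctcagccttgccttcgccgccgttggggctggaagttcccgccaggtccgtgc
NUP35: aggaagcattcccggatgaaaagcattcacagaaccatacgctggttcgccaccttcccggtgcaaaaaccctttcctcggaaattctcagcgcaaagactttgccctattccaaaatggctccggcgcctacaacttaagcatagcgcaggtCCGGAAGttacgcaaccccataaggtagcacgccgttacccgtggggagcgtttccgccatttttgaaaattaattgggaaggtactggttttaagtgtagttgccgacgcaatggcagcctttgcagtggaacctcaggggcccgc
NUP37: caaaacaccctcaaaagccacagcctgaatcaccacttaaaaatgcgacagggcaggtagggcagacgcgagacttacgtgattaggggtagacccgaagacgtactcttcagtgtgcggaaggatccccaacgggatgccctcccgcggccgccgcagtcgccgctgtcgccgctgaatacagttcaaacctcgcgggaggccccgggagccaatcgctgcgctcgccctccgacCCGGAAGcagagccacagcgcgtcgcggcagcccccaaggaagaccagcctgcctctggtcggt
XPOT: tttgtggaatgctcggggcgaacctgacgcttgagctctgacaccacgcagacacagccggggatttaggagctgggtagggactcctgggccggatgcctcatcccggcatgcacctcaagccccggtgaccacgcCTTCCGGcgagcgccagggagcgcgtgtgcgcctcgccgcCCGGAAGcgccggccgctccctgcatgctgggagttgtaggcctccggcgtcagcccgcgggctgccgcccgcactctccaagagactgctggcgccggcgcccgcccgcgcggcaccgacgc

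NUP58, NUP35 and NUP37, which rose, each hold 1 match, starting at positions -66, -97 and -14 from the window's start site, and XPOT, which fell, holds 2, at -113 and -73. A window was found for 47 of 53 members, and the table used has none for NUP43, KPNA4, KPNA5, KPNA7, KPNB1 and XPO7. On either strand, CCGGAAG stood in 36.2% of the members' windows, in 10.7% of those of all 27305 genes and in 20.9% of those of array genes at or above the median level. It stood in 9 of 26 members called higher, 1 of 5 called lower and 7 of 16 not called. Each of 4 further motifs, none of which holds another, was set against all genes and against array genes at or above the median level. CCAAT (NF-Y) stood in 42.6% of members' windows, 35.7% of all and 37.4% of those at or above the median. GGGCGG (GC box) stood in 51.1% of members' windows, above the 44.6% of all and below the 72.2% of those at or above the median. GCATGCGC (NRF1) stood in 10.6%, 3.27% and 6% of the same sets, and the E-box CACGTG in 14.9%, 7.43% and 10.8%. The motifs were chosen with the data known, and a match is letters in a window, not a bound site.

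The outer ring held the largest fall among all members beside 4 rises. NUP43, a small subunit of the Y complex shaped as a beta-propeller, read 470.4, 473.4 and 511.4 in shERCC6L, against 718.8, 756.7 and 740.5 in shNC. The groups lay far apart, with shERCC6L at 65.7% of the shNC mean. Its log2 fold change came to -0.59 ± 0.04 (moderated SE, 3 arrays a group, adjusted p = 1.1e-05). All 7 NUP43 probe sets were called lower when every probe set was tested, at -0.30 to -0.59. The brightest is of a class of probe sets (x_at) in which some probes can match other transcripts, and the 4 NUP43 probe sets outside that class fell by 0.42 to 0.55.

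NUP37, a beta-propeller subunit of the same complex, read 444.3, 441.8 and 478 in shERCC6L, against 331.9, 369.2 and 372.3 in shNC. It rose by 0.33 ± 0.05 (log2, SE; adjusted p = 0.001), and its other probe set rose by 0.34. SEH1L, a Y complex subunit that also serves the nutrient-sensing GATOR2 complex, read 490.6, 512.1 and 502.9 in shERCC6L, against 404.6, 426.7 and 423.7 in shNC. Both groups were tight and apart, at 0.25 ± 0.04 (adjusted p = 0.00065), and its second probe set rose by 0.44. NUP160, a scaffold subunit of the long arm, read 423.8, 446 and 415.8 in shERCC6L, against 397.7, 347.7 and 363.4 in shNC. It rose by 0.21 ± 0.05 (adjusted p = 0.014), 2 of its 3 other probe sets rose, and it was not called when shERCC6L replicate 2 was left out (0.18, adjusted p = 0.057). NUP107, a subunit of the stalk, rose by 0.15 ± 0.04. SEC13, shared with the COPII coat of endoplasmic reticulum vesicles, stood at 0.10 without a call, although its groups did not overlap. Besides, 2 other SEC13 probe sets were called higher, at 0.12 and 0.14, and 1 was not called. SEC13 was called with probe sets averaged (0.07, adjusted p = 0.046) and with an intensity trend and robust variance (adjusted p = 0.032). NUP85 stood at 0.05 without a call. NUP133, at -0.11 (95% interval -0.21 to -0.01), was not called either, though it was with array weights (-0.13), quantile normalization (-0.14), only the brighter genes tested (-0.11) and without shERCC6L replicate 3 (-0.14). Subunits of the Y complex stood on both sides of 0, with 4 higher, 1 lower and 3 not called.

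All 5 inner ring genes were called, 4 higher and 1 lower, where 52.4% of genes at or above the median level were called. NUP35, which joins the ring to the membrane, read 388.6, 391.1 and 387.9 in shERCC6L, against 312.8, 287.3 and 312.6 in shNC. It rose by 0.34 ± 0.04 (log2, SE; adjusted p = 0.00021), and all 4 of its probe sets rose, by 0.21 to 0.37. The brightest NUP35 probe set is of the x_at class, and those outside that class rose by 0.31 and 0.37. NUP155, a scaffold protein of the ring, rose by 0.20 ± 0.04, the linker NUP93 by 0.19 ± 0.04 and the large NUP188 by 0.16 ± 0.04, each on a single probe set. NUP205, the paralog of NUP188, went the other way. It read 1182, 1158 and 1133 in shERCC6L, against 1259, 1220 and 1281 in shNC, at -0.11 ± 0.04 (adjusted p = 0.038). A dimmer NUP205 probe set fell by 0.19, and the third was not called. The NUP205 call was lost without shERCC6L replicate 2 (adjusted p = 0.098) or 3 (0.11), without shNC replicate 1 (0.1) or 3 (0.13) and with a pseudocount of 1 (0.083).

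In the central channel NUP58 rose on every probe set. NUP58, NUP54 and NUP62 form a trimer whose repeats are part of the channel's permeability barrier. NUP58 read 192.7, 202.8 and 222 in shERCC6L, against 146, 162.8 and 163.9 in shNC, and rose by 0.35 ± 0.06 (log2, SE; adjusted p = 0.0015). Its 4 probe sets rose by 0.33 to 0.44. The brightest is of the x_at class noted for NUP43, and the dimmest, outside that class, rose by 0.44. NUP62, at 0.11, and NUP54, at 0.09, were not called, although their groups did not overlap. The other 3 NUP62 probe sets were called higher at 0.18 to 0.21. With probe sets averaged both genes were called, NUP62 at 0.17 and NUP54 at 0.12. NUP98, whose transcript also encodes the Y complex protein NUP96, rose by 0.18 ± 0.04 (adjusted p = 0.012), and by 0.43 on its dimmest probe set, while the third, at 0.10, was not called.

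**Figure D2:**
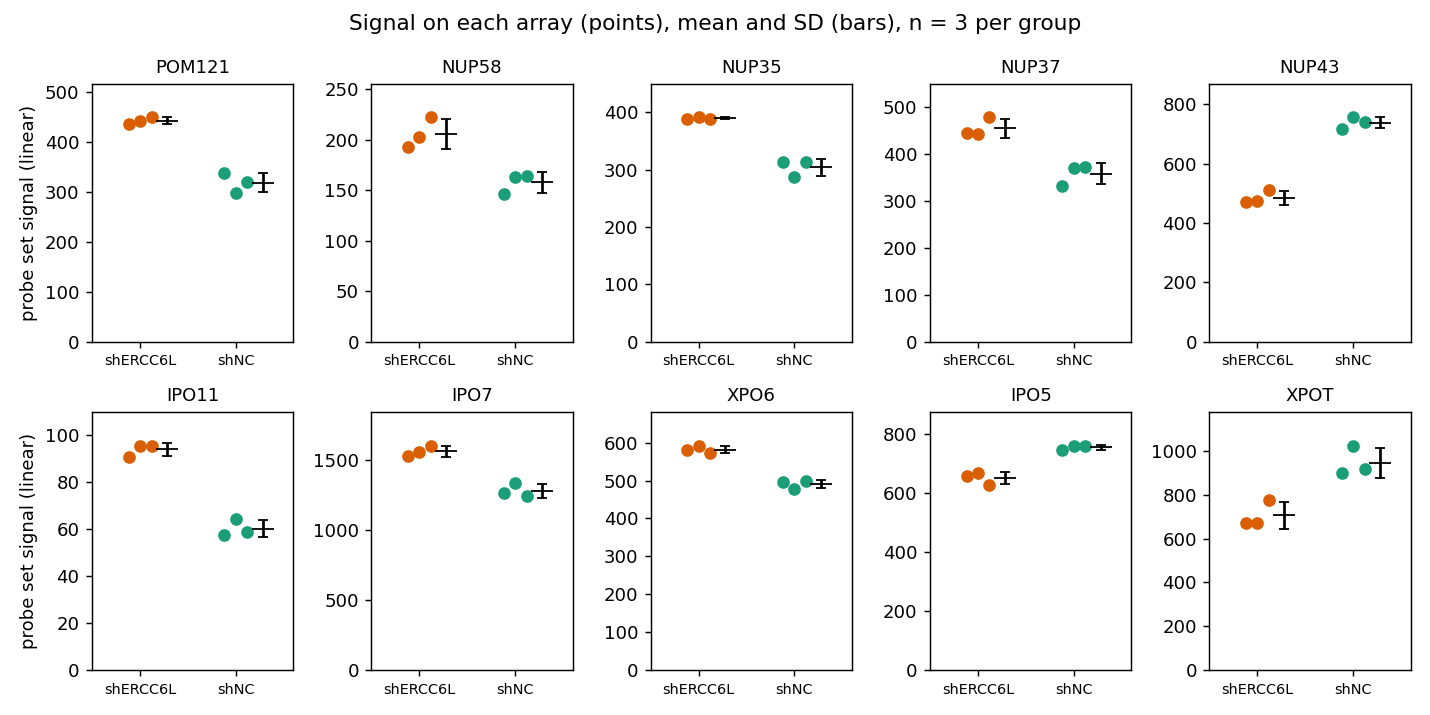
Linear probe set signal (vertical axis, from 0) of 10 members on each shERCC6L and shNC array (points), with the mean and SD beside them (n = 3 per group). The groups are apart in every panel, with NUP43, IPO5 and XPOT lower and the other 7 higher in shERCC6L.

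On the cytoplasmic side 2 of 5 genes rose and 1 fell. That is 40% and 20%, beside 32.8% and 19.6% of genes at or above the median level. NUP42, which binds the mRNA export factor GLE1, read 343.2, 329.3 and 325.4 in shERCC6L, against 281.9, 276.1 and 304.8 in shNC, and rose by 0.20 ± 0.04 (log2, SE; adjusted p = 0.007). RAE1, an mRNA export factor that docks on NUP98, rose by 0.16 ± 0.04, and its other probe set was not called. AAAS, which encodes the pore protein ALADIN and is mutated in triple A syndrome, was lower at -0.13 ± 0.04 (adjusted p = 0.038). It read 202.9, 213.1 and 216.7 in shERCC6L, against 235.6, 222.5 and 237.3 in shNC. This AAAS call did not last without shERCC6L replicate 1 (adjusted p = 0.11) or 2 (0.079) or shNC replicate 1 (0.11) or 3 (0.12), nor with median centring (0.052) or a pseudocount of 1 (0.069). NUP88, at 0.10, missed the threshold at an adjusted p of 0.052 and passed under 6 of 16 alternatives. Its filament partner NUP214 stood at -0.02, with a 95% interval of -0.11 to 0.08.

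Of the 6 basket and membrane genes, 2 rose and 1 fell, beside 32.8% and 19.6% of genes at or above the median level. TPR, the main filament of the nuclear basket, read 714.3, 735.6 and 746.9 in shERCC6L, against 631.3, 628.1 and 614.9 in shNC, and rose by 0.22 ± 0.03 (log2, SE; adjusted p = 0.00093). Of the other 4 TPR probe sets 1 rose, by 0.26, and averaging all of them gave 0.10. NUP153, which anchors the basket, stood at -0.01 (95% interval -0.11 to 0.09). NUP50, a basket protein that helps to release cargo from importins, stood at -0.11, with 1 of its 7 probe sets called, as lower. Quantile normalization made NUP50 lower (-0.14), as did leaving out shERCC6L replicate 3 (-0.14, adjusted p = 0.04).

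POM121, a membrane protein that anchors the pore, was the pore gene with the largest rise. It read 436.5, 441.8 and 449.4 in shERCC6L, against 337, 298.5 and 319.3 in shNC. All shERCC6L arrays exceeded every shNC array, and the log2 fold change was 0.46 ± 0.05 (SE; adjusted p = 7.2e-05), on 1 probe set. Signal of its near copy POM121C may not be separable from it. The probe set of POM121C alone was dim, with mean signals of 36.85 in shERCC6L and 33.27 in shNC. At 0.10 the POM121C probe set was not called, although its groups did not overlap. NDC1, another pore membrane protein, stood at 0.02 (95% interval -0.07 to 0.11). NUP210 is a membrane pore protein known mostly from differentiating tissue. It was dim, at 24.21, 24.16 and 24.9 in shERCC6L, against 26.32, 28.22 and 29.19 in shNC, and its call (-0.12 ± 0.04, adjusted p = 0.034) was lost under 9 of the 15 alternatives that tested it. The NUP210 change was -0.18 with a pseudocount of 1 and -0.06 with one of 64. Leaving out shERCC6L replicate 1, 2 or 3 (adjusted p = 0.08, 0.1 and 0.055) or shNC replicate 2 or 3 (0.087 and 0.12) each ended it.

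**Figure D3:**
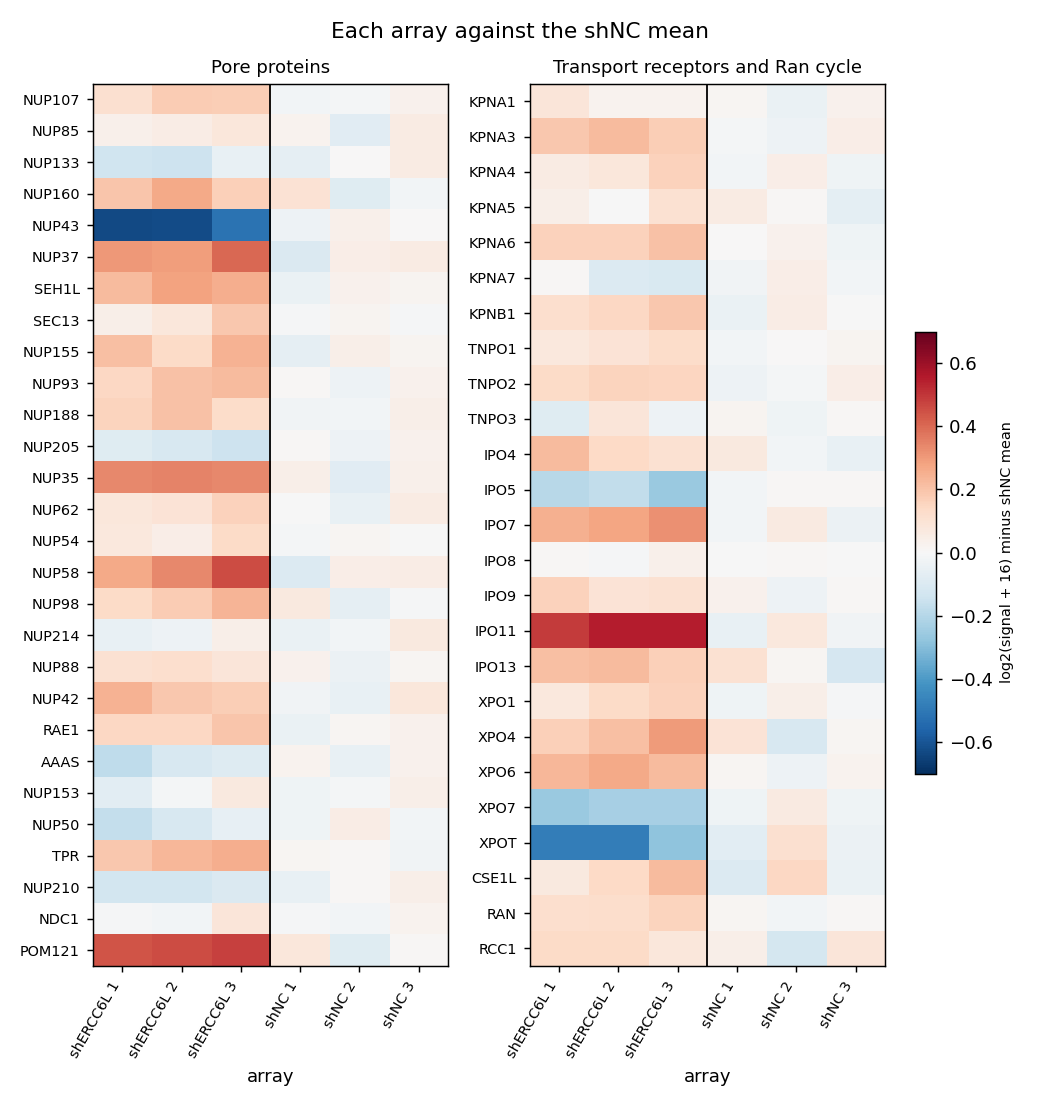
Each member gene (rows) on each array (columns, shERCC6L left of the line and shNC right of it), coloured by log2(signal + 16) minus the mean of the shNC arrays. NUP43, XPOT, IPO5 and XPO7 are blue and IPO11, POM121, NUP58, NUP35 and NUP37 red on all 3 shERCC6L arrays.

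Importin alpha proteins are the adaptors that read the classical nuclear localization signal and bind importin beta, KPNB1. Of the 6 measured, 2 were higher and 0 lower, or 33.3% and 0%. Of genes at or above the median level, where 4 of the 6 lay, 32.8% were higher and 19.6% lower. KPNA3 read 375, 383.9 and 369.9 in shERCC6L, against 323.9, 318.9 and 337.5 in shNC, and rose by 0.19 ± 0.04 (log2, SE; adjusted p = 0.0028). KPNA6 rose by 0.18 ± 0.03 (adjusted p = 0.0036) on a probe set of the x_at class. Of its other probe sets 2 were called higher and 2 were not called. KPNA4, at 0.10, and KPNA1, at 0.04 (95% interval -0.04 to 0.13), were not called, though 1 probe set of each was, at 0.26 and 0.30, and with probe sets averaged both genes were. KPNA5 and KPNA7 were dim, with mean signals of 15.53 and 52.43 in shERCC6L, against 14.5 and 55.53 in shNC, so that little can be said of them. KPNB1 itself read 3257, 3322 and 3428 in shERCC6L, against 2902, 3106 and 2996 in shNC. It rose by 0.15 ± 0.04 (adjusted p = 0.015), and all 5 of its probe sets rose, by 0.14 to 0.21. The KPNB1 call was lost without shNC replicate 1 (0.13, adjusted p = 0.059) and without shERCC6L replicate 3 (0.13, adjusted p = 0.05).

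Among the import receptors, KPNB1 included, 7 of 11 were higher and 1 lower. That is 63.6% and 9.09%, beside 32.8% and 19.6% of genes at or above the median level. IPO11, which carries ubiquitin-conjugating enzymes into the nucleus, changed most. It read 90.57, 95.27 and 95.32 in shERCC6L, against 57.33, 64.02 and 58.71 in shNC. The groups lay well apart, and the log2 fold change was 0.53 ± 0.04 (SE; adjusted p = 2.2e-05), or 1.44-fold. At this low signal the pseudocount matters: the IPO11 change was 0.64 with a pseudocount of 1 and 0.35 with one of 64, called in both. IPO7, a receptor of ribosomal proteins and histone H1, read 1524, 1554 and 1602 in shERCC6L, against 1260, 1337 and 1242 in shNC. It rose by 0.28 ± 0.04 (adjusted p = 6.0e-04), and all 4 of its probe sets rose, by 0.23 to 0.38.

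IPO5, which like IPO7 carries ribosomal proteins, went the opposite way. It read 657.8, 667.5 and 628.5 in shERCC6L, against 745.5, 761.2 and 759.5 in shNC, a log2 fold change of -0.21 ± 0.04 (SE; adjusted p = 0.0018). Its 3 probe sets were all called lower, but at sizes from -0.16 to -0.79, and the averaged change was -0.39. The probe set with the largest IPO5 change was dim, at 21.47, 27.04 and 28.57 in shERCC6L, against 51.85, 54.78 and 62.04 in shNC. IPO7 and IPO5 were thus called in opposite directions on every one of their probe sets.

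IPO13, a receptor that works in import and export, rose by 0.20 ± 0.05 and the histone importer IPO4 by 0.15 ± 0.05. TNPO2 rose by 0.15 ± 0.04, or by 0.09 with probe sets averaged, and IPO9, which carries histones H2A and H2B, by 0.12 ± 0.04. Leaving out single arrays ended 3 of these smaller calls. IPO4 and IPO9 lost theirs without shERCC6L replicate 1 or 2 or shNC replicate 2 or 3, at adjusted p from 0.063 to 0.1 for IPO4 and from 0.055 to 0.095 for IPO9. IPO13 lost its call without shERCC6L replicate 1 (0.056) or 2 (0.07) or shNC replicate 3 (0.054). Quantile normalization ended the calls of IPO4 (adjusted p = 0.068) and IPO9 (0.13), as did a pseudocount of 1 (0.052 and 0.064), and averaging probe sets that of IPO9 (0.05 on the log2 scale). TNPO1, the paralog of TNPO2 that imports many RNA-binding proteins, lay at the threshold, at 0.10 with an adjusted p of 0.0504. Its probe sets differed: 2 others were called higher, at 0.18 and 0.29, and 2 were not called. Among the latter, a bright one stood at -0.06, with every shERCC6L array below every shNC array. With probe sets averaged TNPO1 was called (0.105, adjusted p = 0.012). TNPO3, which imports SR splicing factors, stood at -0.01 (95% interval -0.12 to 0.10) and IPO8 at 0.01 (-0.06 to 0.08).

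Exportins divided, with 3 of 6 higher and 2 lower, beside 32.8% and 19.6% of genes at or above the median level. XPOT, the receptor that exports tRNA, fell most. It read 671.3, 671.9 and 775.4 in shERCC6L, against 900, 1026 and 917.6 in shNC. The highest shERCC6L array stayed below the lowest shNC array, although both groups were more spread than those of most members, with SDs of 59.9 and 68.1. The log2 fold change was -0.42 ± 0.07 (SE; adjusted p = 0.0013), on the single XPOT probe set. XPO7 read 233.5, 238.1 and 238.1 in shERCC6L, against 276.4, 295.9 and 275.9 in shNC, and fell by 0.24 ± 0.04 (adjusted p = 0.0011). A second XPO7 probe set fell by 0.24, and the third was not called.

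XPO6, which exports actin bound to profilin, read 579.9, 592.8 and 573.8 in shERCC6L, against 495.8, 477.7 and 498.6 in shNC, and rose by 0.24 ± 0.03 (log2, SE; adjusted p = 0.00067). XPO1, or CRM1, the receptor for leucine-rich export signals, rose by 0.12 ± 0.04 (adjusted p = 0.035), and its 3 other probe sets were not called. The XPO1 call was lost without shERCC6L replicate 2 (0.1) or 3 (0.1), without shNC replicate 1 (0.11) or 3 (0.096), and with a pseudocount of 1 (0.074). XPO4, which exports the translation factor eIF5A, read 169.8, 175.5 and 187.6 in shERCC6L, against 160.8, 137 and 151.1 in shNC. It rose by 0.23 ± 0.06 (adjusted p = 0.014) on its brightest probe set, but none of its 4 dimmer probe sets was called, and with probe sets averaged the change was 0.02 (adjusted p = 0.79). CSE1L, the exportin that returns importin alpha to the cytoplasm, read 2387, 2513 and 2660 in shERCC6L, against 2130, 2517 and 2207 in shNC. These groups overlapped through shNC replicate 2 alone. CSE1L was not called (0.14 ± 0.07, adjusted p = 0.14) but was without that array (0.21, adjusted p = 0.016). A second, nearly as bright CSE1L probe set was called higher at 0.19, and its groups did not overlap with all arrays kept. The third, at 0.11, was not called. With probe sets averaged CSE1L was called (0.15, adjusted p = 0.026).

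RAN, the GTPase that gives transport its direction, read 5265, 5270 and 5398 in shERCC6L, against 4884, 4778 and 4875 in shNC. It rose by 0.13 ± 0.03 (log2, SE; adjusted p = 0.013). Of its 3 other probe sets 2 rose, by 0.15 and 0.52, and the dimmest was not called. RCC1, the exchange factor of Ran, stood at 0.12 ± 0.05 and was not called, while its second probe set rose by 0.27 and the average of both, at 0.19, was called.

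When every probe set was tested, 68 of the 161 member probe sets were higher and 18 lower. That is 42.2% and 11.2%, against 17% and 12% of all single-symbol probe sets. Member probe sets were brighter, with 131 of 161 at or above the median gene level, beside 19451 of all 44988. The median log2 fold change was 0.10 over the member probe sets and -0.01 over all. Of the 40 members with several probe sets, 0 had calls in both directions, where 1.34% of all 11734 such genes did. For 10 of the 40 every probe set was called in 1 direction, where 13.5% of all such genes were: NUP43 and IPO5 as lower, and NUP37, SEH1L, NUP35, NUP58, KPNA3, KPNB1, IPO7 and IPO13 as higher. Probe sets of a gene share its RNA and are not replicates.

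**Figure D4:**
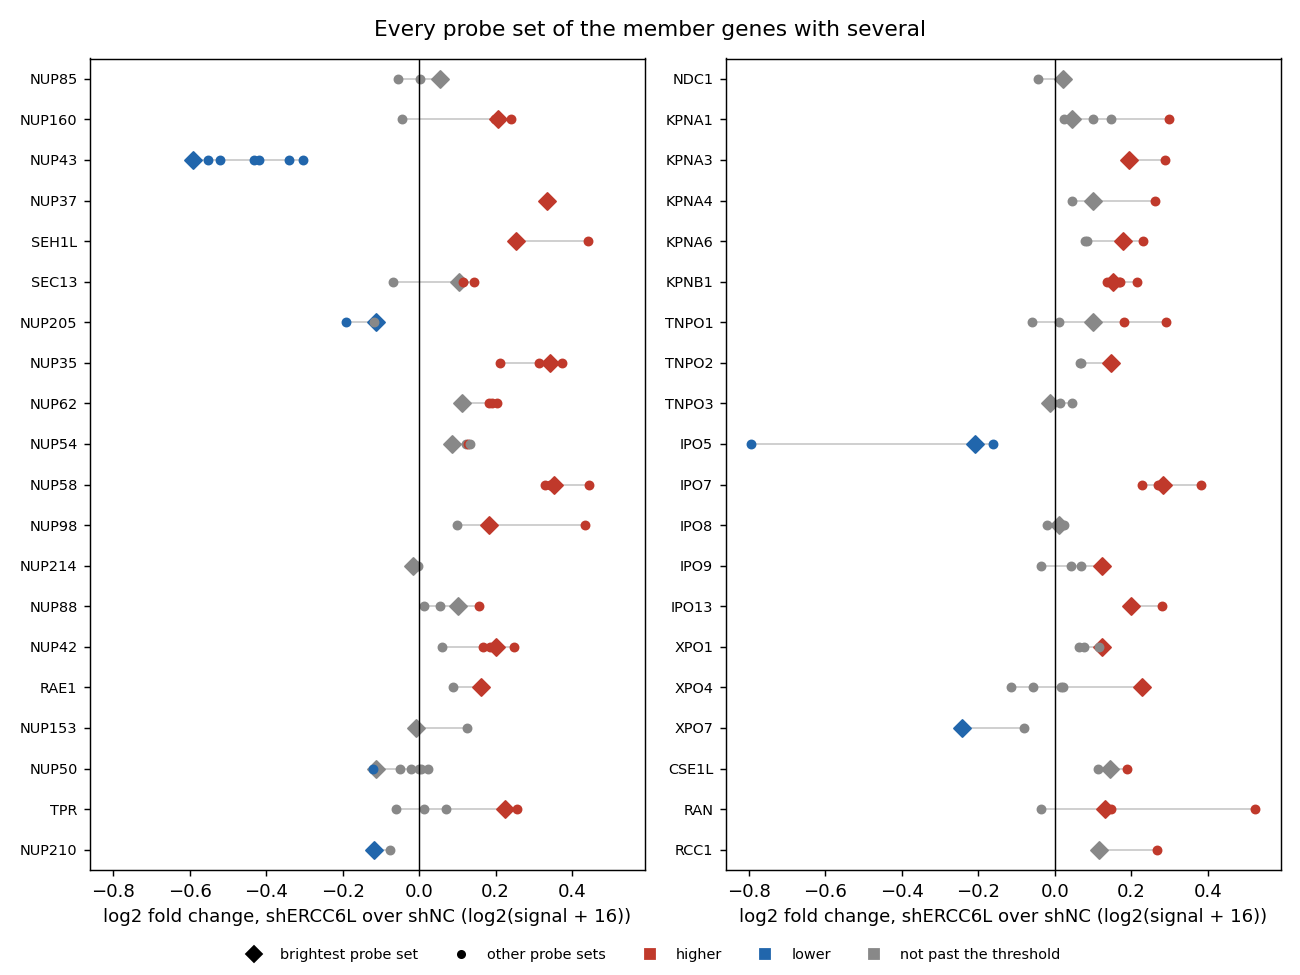
Log2 fold change (shERCC6L over shNC, log2(signal + 16)) of every probe set of the 40 members with several, the brightest as a diamond, coloured by its call when every probe set was tested. The points of NUP43 all lie between -0.59 and -0.30, and those of IPO5 spread from -0.79 to -0.16.

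Genes that work beside the members were read from further lists. Their counts stand beside 32.8% higher and 19.6% lower of genes at or above the median level. Of 16 other pore and Ran cycle genes, 8 were higher and 0 lower on their brightest probe sets. RANBP6, a close relative of IPO5, rose most, to a mean signal of 188 in shERCC6L, against 102.5 in shNC (0.79 ± 0.06 on the log2 scale, SE; adjusted p = 2.6e-05). TMEM33, a membrane protein, rose by 0.33, the import adaptor of splicing particles SNUPN by 0.20 and RANBP1, which helps RANGAP1 to hydrolyse Ran's GTP, by 0.18, or 0.10 with probe sets averaged. RANBP2, the large protein of the cytoplasmic filaments, was not called at 0.09 on its brightest probe set. Of its 3 other probe sets 2 were called higher, and with probe sets averaged it rose by 0.24 (adjusted p = 0.00025). RANBP17 was not called at 0.11 on its brightest probe set, but 1 other probe set was called lower, at -0.49. With probe sets averaged RANBP17 was lower, at -0.15 (adjusted p = 0.0041). Both RANBP2 and RANBP17 were chosen after their values were seen. Of 19 mRNA export genes, 10 were higher and 2 lower: the helicase gene DDX39A rose by 0.58, NXT2 by 0.43 (0.27 averaged) and THOC1 by 0.45, while THOC5, of the same THO complex as THOC1, fell by 0.35, as did THOC6, by 0.29, which was named after its values were seen.

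All 14 genes of the nuclear lamina and envelope lay at or above the median level, where 32.8% of genes were higher and 19.6% lower. Of the 14, 3 rose and 3 fell, or 21.4% each. Those with the smallest p were the nesprin genes SYNE1, which rose by 0.63, and SYNE2, which fell by 0.64, followed by LMNA, which rose by 0.22, and TMPO, which fell by 0.20. With probe sets averaged, LMNA stood at 0.11 and TMPO at -0.09, and 5 of the 6 other LMNA probe sets and 7 of the 8 other TMPO probe sets were not called. Of 10 proliferation genes, 6 rose and 0 fell on their brightest probe sets, beside 32.8% and 19.6% of genes at or above the median level. MKI67 rose by 0.48, MCM6 by 0.29 (0.23 averaged), CDK1 by 0.33 (0.25 averaged) and MCM7 by 0.23 (0.24 averaged). The 5 other MKI67 probe sets were not called, and its averaged change was 0.145. The other PCNA probe set was called lower at -0.23, while all 4 other MCM4 probe sets were called higher. PCNA and MCM4 were named after their values were seen. The 10 genes' median log2 fold change was 0.23, beside 0.12 for the pore and transport genes, and their part in the members' changes was not tested.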

How the data were processed

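RNA of 6 samples was measured on single-channel arrays. The deposited values are linear intensities per probe set, made with Affymetrix Expression Console per the submitters' processing notes; the sources used here give neither its version nor its settings. Precision is limited by the number of arrays. Of 49395 probe sets, 44988 listed 1 gene symbol in GEO's annotation of the array, 1832 several and 2473 none, and 102 were controls. Each gene's brightest probe set on the log2(signal + 16) scale was kept; the pseudocount understates changes of dim genes.

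A linear model of the 18132 genes was fitted with limma (version 3.58.1, under R 4.3.3), whose moderated 2-sided test had 4 residual and 4.95 prior degrees of freedom, and p-values were adjusted by Benjamini-Hochberg over all genes. The script was tested on simulated data. Members, lists and tests were chosen with earlier results of these data known. The naming rule gave full statistics to up to 12 of the largest rises and of the largest falls among called members, and log2 fold changes to the others under their roles; array values of KPNA3, KPNB1, RAN and CSE1L were added after they were seen, and up to 4 genes of each further list were taken by smallest p. Same-numbered arrays did not deviate together (r of 0.24, -0.15 and -0.01) and were not paired. The 16 alternatives changed the block, normalization, centring, filter, use of probe sets, variance model, array weights, pseudocount (1 or 64) or arrays included. SENP2, IPO11-LRRC70, NXF1, SEM1, ZC3H11A, UIF and CA9 were among the listed genes not analysed here.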

Additional observations from a re-analysis of the deposited data

How the results depend on the processing

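The 27 members called higher became 24 to 34 under the alternatives that kept all arrays and 22 to 26 with 1 array left out. The 7 called lower became 5 to 8 and, with 1 array left out, 4 to 7, with 4 reached without shERCC6L replicate 2 and without shNC replicate 3. The members' median log2 fold change ran from 0.10 with quantile normalization to 0.14 without shERCC6L replicate 1. Of 34 members called, 24 were called under every alternative that tested them, 10 were lost under 1 or more and 0 turned direction. A further 11 members were called only under some alternatives. With a replicate block 27 members were higher and 5 lower: NUP205 (adjusted p = 0.065) and AAAS (0.054) were lost and no other member's call changed. The replicate block called 5619 of all genes, beside 5733 without it, and not every array correlated best with its own number. The brightness of a probe set limits what can be read for KPNA5, KPNA7 and NUP210.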
